A study of Mus musculus with 18 samples.

Results

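Glycolysis and hypoxia genes were followed here as a set of 35 genes chosen by name: the transporters and enzymes that carry glucose to lactate, the kinases and dehydrogenases at the branch to the mitochondrion, and genes of oxygen sensing together with targets of hypoxia-inducible factor (HIF). Each gene was read from the probe sets that carry its symbol and no other, by the probe set with the highest mean. On this rule 33 of the 35 were measured among 18194 genes tested. Eno1 and Gpi1 were not analysed here because no probe set was found under their symbol, alone or shared. The members were listed with earlier results of these data known, so the set is not independent of them.

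Glycolysis splits glucose into pyruvate in the cytosol, and lactate dehydrogenase turns pyruvate into lactate when it is not passed on to the mitochondrion. When oxygen is short, prolyl hydroxylases no longer mark the HIF alpha subunit for breakdown by the VHL ubiquitin ligase, and HIF then drives transcription of glucose transporters, most glycolytic enzymes and pyruvate dehydrogenase kinase. The same genes are often high in tumors without a lack of oxygen, a behaviour known as the Warburg effect, and HIF also acts on genes of acid balance, mitophagy, collagen folding and vascular tone.

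The samples were lung tissue of B6C3F1/N mice, the first-generation cross that long carcinogenicity studies commonly use, which were 5 to 6 weeks old at the start of a whole-body inhalation study of antimony trioxide. Groups of 60 males and 60 females were kept at 0, 3, 10 or 30 mg per cubic metre for 6 hours a day plus a short build-up time, 5 days a week, for up to 105 weeks. Expression was measured on Affymetrix arrays in 6 samples of lung from vehicle controls (control), 6 of tumors labelled spontaneous and 6 of tumors labelled antimony treated (treated), the tumors having been cut out of the lung around them. The labels give neither the animal, its sex nor the concentration behind a sample, and do not say that replicates came from separate animals, so a p-value here speaks only of the spread among these samples, which may be technical. Values are log2 expression after robust multi-array averaging (RMA), and the number of arrays limits the precision.

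Control 5 and spontaneous tumors 5 and 6 stood apart from the other arrays, with median correlations of 0.30 to 0.48 with the rest against 0.92 to 0.97 on the other 15, and were left out. The comparisons therefore rest on 5 control, 4 spontaneous and 6 treated arrays. Control lung carried the markers of its labelled tissue: the mean log2 level of 9 alveolar type 2 cell markers was 11.9 to 12.71 and that of 10 endothelial markers 11.28 to 11.88. On tumor arrays the type 2 markers read 13.05 to 13.41, and 7 of 9 rose in either tumor group, while the endothelial markers read 8.22 to 9.47, and 9 of 10 fell in spontaneous and 10 of 10 in treated tumors. The part of this change of tissue in the differences below was not tested, and in bulk tissue fewer cells of a type and less RNA per cell cannot be told apart.

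Promoters are shown for 5 members on which the results turn: Hk2 and Ldha, the kinase and the dehydrogenase at either end of the pathway, Egln3 and Car9, classical HIF targets, and Adm, the member that fell. Each window is a RefSeq promoter entry on GRCm38.p6, running from 250 bases before to 50 after a start on the strand of the gene. For Hk2, Egln3, Car9 and Adm that is the annotated 5′ end of the gene and the only entry. Ldha has 2 entries, both shown, and both lie downstream of its annotated 5′ end at position 46842274. Capitals mark the HIF core motif, ACGTG or GCGTG, on either strand, so its reverse complement (CACGT or CACGC) is capitalized too, and a palindrome counts once per strand. The windows lie at chr6:82774405-82774704 on the minus strand for Hk2 (2 cores), chr7:46845554-46845853 and chr7:46846832-46847131 on the plus strand for the upstream and downstream Ldha entries (7 and 2 cores), chr12:54203825-54204124 on the minus strand for Egln3 (1 core), chr4:43506776-43507075 on the plus strand for Car9 (1 core) and chr7:110627407-110627706 on the plus strand for Adm (2 cores).
Hk2: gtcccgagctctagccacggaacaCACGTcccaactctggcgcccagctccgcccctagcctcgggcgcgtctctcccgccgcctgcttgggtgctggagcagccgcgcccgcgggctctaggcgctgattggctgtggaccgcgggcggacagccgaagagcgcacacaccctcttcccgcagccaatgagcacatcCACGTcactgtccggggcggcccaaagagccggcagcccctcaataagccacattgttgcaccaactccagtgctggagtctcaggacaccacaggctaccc
Ldha, upstream: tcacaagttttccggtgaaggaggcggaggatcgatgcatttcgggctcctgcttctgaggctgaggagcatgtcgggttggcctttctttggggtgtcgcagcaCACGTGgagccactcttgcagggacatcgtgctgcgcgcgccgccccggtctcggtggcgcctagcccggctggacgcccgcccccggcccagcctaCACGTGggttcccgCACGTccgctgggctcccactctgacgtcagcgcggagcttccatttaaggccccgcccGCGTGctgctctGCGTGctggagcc
Ldha, downstream: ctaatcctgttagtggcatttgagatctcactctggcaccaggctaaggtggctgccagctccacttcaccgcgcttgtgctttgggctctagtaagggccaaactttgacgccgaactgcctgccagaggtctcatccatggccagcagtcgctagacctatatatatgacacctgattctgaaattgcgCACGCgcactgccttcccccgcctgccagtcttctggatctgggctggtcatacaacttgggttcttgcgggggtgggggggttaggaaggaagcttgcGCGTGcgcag
Egln3: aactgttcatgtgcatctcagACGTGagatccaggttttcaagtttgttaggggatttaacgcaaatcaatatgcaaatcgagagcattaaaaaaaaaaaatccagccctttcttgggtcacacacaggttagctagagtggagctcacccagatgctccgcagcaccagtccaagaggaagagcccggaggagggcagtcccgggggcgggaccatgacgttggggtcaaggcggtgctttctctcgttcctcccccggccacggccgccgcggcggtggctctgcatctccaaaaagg
Car9: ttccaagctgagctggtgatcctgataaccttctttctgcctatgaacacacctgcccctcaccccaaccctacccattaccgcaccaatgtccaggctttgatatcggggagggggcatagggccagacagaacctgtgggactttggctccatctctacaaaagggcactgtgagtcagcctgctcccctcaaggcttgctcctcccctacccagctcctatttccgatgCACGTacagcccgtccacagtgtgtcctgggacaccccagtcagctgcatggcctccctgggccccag
Adm: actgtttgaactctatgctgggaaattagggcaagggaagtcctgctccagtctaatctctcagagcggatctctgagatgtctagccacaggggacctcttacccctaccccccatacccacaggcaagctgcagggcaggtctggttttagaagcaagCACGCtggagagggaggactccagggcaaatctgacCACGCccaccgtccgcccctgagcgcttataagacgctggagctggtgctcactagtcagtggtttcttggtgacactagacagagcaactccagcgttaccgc

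A core was present in 35 of the 42 RefSeq promoters of 31 members (83.3%), against 43.8% of all 32851 promoters of the same length. It was present in 17 of 20 promoters of members that rose in both tumor groups (85%) and in 13 of 16 promoters of members called in neither (81.25%). The motif thus occurred at nearly the same share in members called higher in both tumor groups and in members called in neither. Members called in a single comparison, and Adm, are in neither share, and a member that was not called may still differ. A match of 5 letters is a description of the sequence and not evidence of a bound site, and the absence of a match, as for Tpi1 and Eno2, says only that these letters are not in the window.

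Spontaneous tumors were compared with control lung to ask how tumors labelled spontaneous differ from normal tissue, and treated tumors to ask the same of tumors after exposure. In spontaneous tumors 15 of 33 members rose and 1 fell, and in treated tumors 17 rose and 1 fell (limma, two-sided, Benjamini-Hochberg adjusted p under 0.05 over all genes). Over all genes, 20.1% were called higher and 12.9% lower in spontaneous tumors, and 23.8% higher and 15% lower in treated tumors, or 33.0% and 38.8% in either direction. The median log2 fold change of the members was 0.71 in spontaneous and 0.63 in treated tumors, against 0.12 and 0.089 over all genes. Tumor and control arrays did not overlap for 15 members in the first comparison and 9 in the second, against 29.3% and 24.5% of all genes. Both comparisons use the same 5 control arrays, so their values are given side by side and are not independent of each other.

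**Figure D1:**
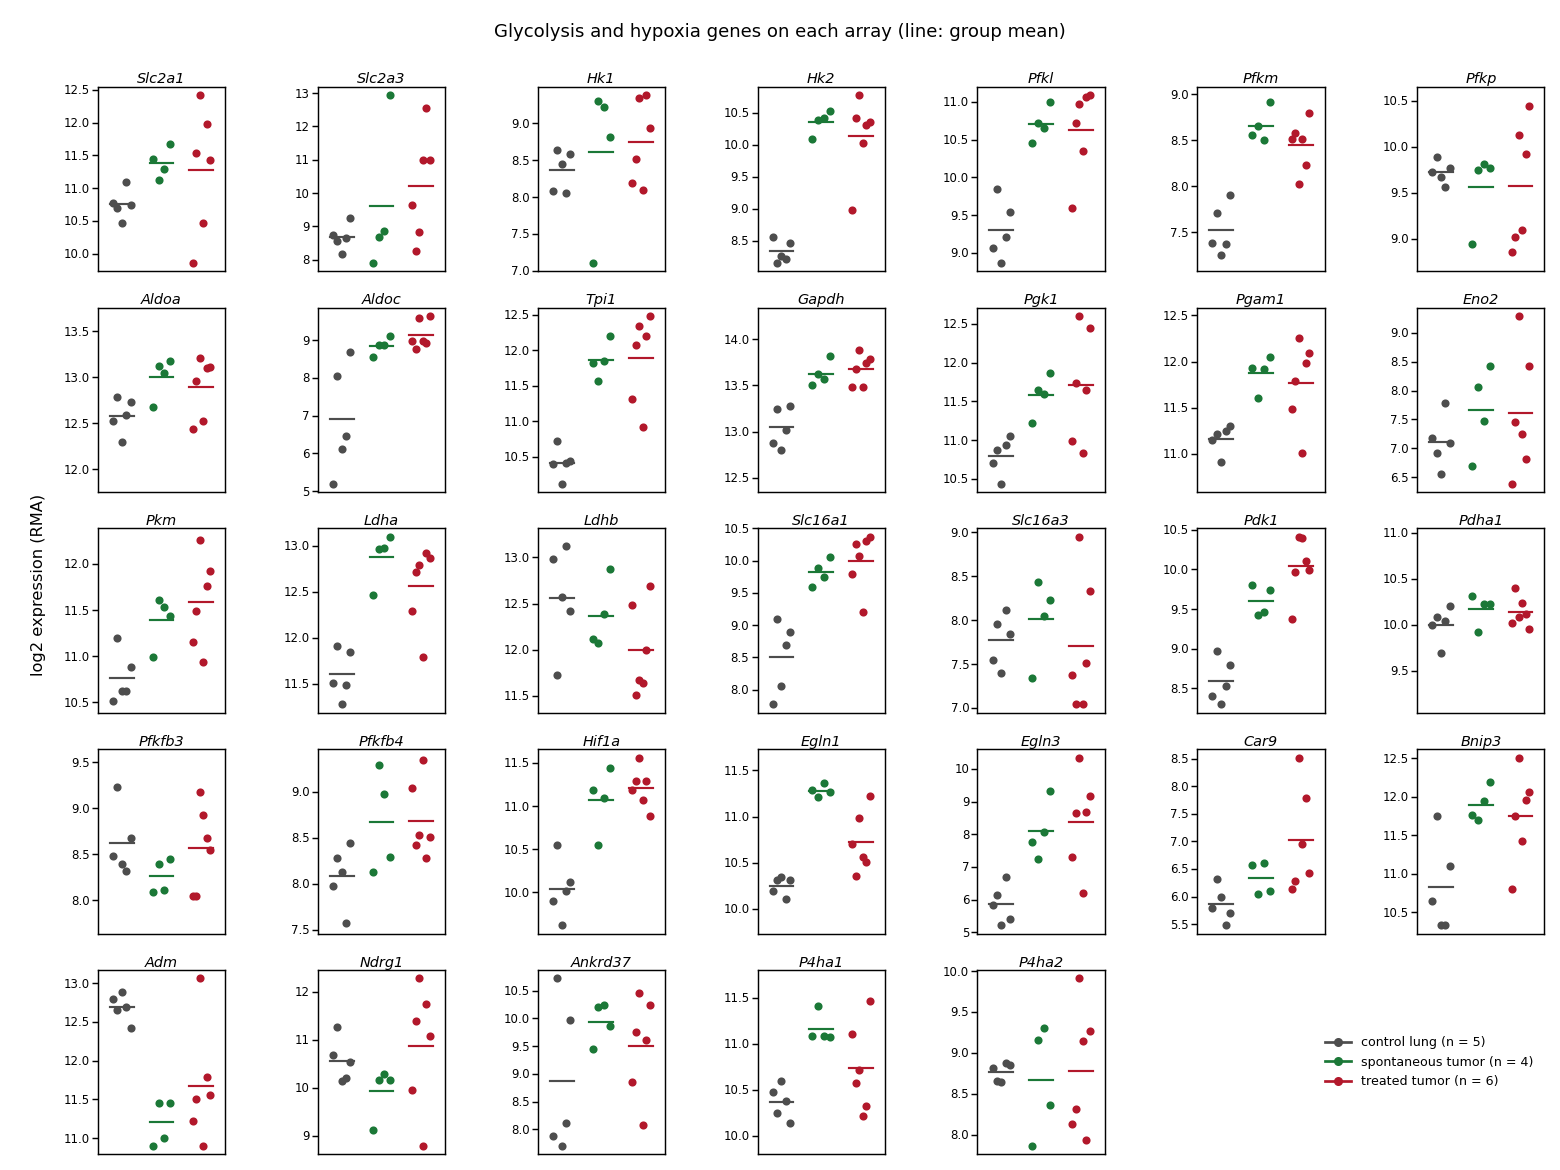
Log2 expression (RMA) of the 33 measured members, 1 panel per gene with its own vertical scale, 1 point per array and a line at the group mean, for control lung (5 arrays), spontaneous tumors (4) and treated tumors (6). Hk2 on tumor arrays lies above all control arrays, Adm on the 4 spontaneous arrays lies below all control arrays, and treated arrays of Egln3 spread from 6.19 to 10.34.

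The sugar transporters were not called in either comparison with all 15 arrays. Slc2a1, the GLUT1 glucose transporter, had log2 fold changes of 0.63 ± 0.39 (SE) in spontaneous and 0.53 ± 0.35 in treated tumors (limma, adjusted p = 0.24 and 0.26). Its spontaneous arrays, 11.12 to 11.67, all lay above its control arrays, 10.47 to 11.09. Its SD was 0.22 in control, 0.235 in spontaneous and 0.955 in treated arrays, and the fit pools the spread over the groups. With only the 2 groups compared in the fit, Slc2a1 was called higher in spontaneous tumors. Without treated tumor 1 it was called in treated tumors, at 0.81 ± 0.28 (adjusted p = 0.031). Slc2a3, the GLUT3 transporter, read 8.74, 8.57, 8.16, 8.64 and 9.25 on the control arrays, 7.91, 8.68, 8.87 and 12.94 on the spontaneous arrays, and 8.26, 10.32 and 12.56 as the lowest, median and highest treated array. Spontaneous tumor 4 thus stood several log2 units above the other spontaneous arrays. Treated arrays spread from within the control range to well above it, with a median above every control array. The fold changes of Slc2a3, 0.93 ± 0.93 and 1.54 ± 0.84, were not called (limma, adjusted p = 0.48 and 0.17). Its 4 probe sets gave values from 0.92 to 1.02 in spontaneous and 1.47 to 1.55 in treated tumors. Without spontaneous tumor 4 the value in spontaneous tumors was -0.19 ± 0.73.

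In upper glycolysis, from hexokinase to triose phosphate isomerase, 5 of 8 measured members rose in both tumor groups and 3 were called in neither. Hk2, the inducible hexokinase that traps glucose in the cell, read 8.56, 8.16, 8.27, 8.22 and 8.47 on control arrays and 10.08, 10.38, 10.42 and 10.53 on spontaneous arrays. Its treated arrays read 8.98, 10.33 and 10.77 as lowest, median and highest. All tumor arrays lay above all control arrays, with treated tumor 1 closest to them. The change was 2.02 ± 0.26, or 4.05-fold, in spontaneous and 1.80 ± 0.24, or 3.49-fold, in treated tumors (limma, adjusted p = 3.9e-05 and 3.0e-05). Hk1, the constitutive hexokinase, had 0.25 ± 0.39 and 0.38 ± 0.36 (adjusted p = 0.66 and 0.44).

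Phosphofructokinase, the committed step of the pathway, is made from 3 genes, of which 2 rose in both tumor groups. Pfkl, the liver form, rose by 1.40 ± 0.28 in spontaneous and 1.32 ± 0.25 in treated tumors (limma, adjusted p = 0.0015 and 0.00076). Pfkm, the muscle form, rose by 1.14 ± 0.17 and 0.92 ± 0.15 (adjusted p = 0.00013 and 0.00023), with all tumor arrays above all control arrays. Pfkp, the platelet form, had -0.16 ± 0.30 and -0.15 ± 0.27 (adjusted p = 0.72 and 0.71). Its tumor arrays ran from 8.86 to 10.44 on either side of the control range of 9.56 to 9.89. Differences between the genes were not tested.

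Of the aldolases, which cleave fructose bisphosphate, Aldoc was called and Aldoa was not. Aldoc, the brain form, read 5.20, 8.05, 6.12, 6.46 and 8.68 on control arrays 1, 2, 3, 4 and 6 and 8.56, 8.87, 8.87 and 9.12 on spontaneous arrays, with 8.77, 8.98 and 9.64 as the lowest, median and highest treated array. Tumor arrays were alike and control arrays were not: controls 2 and 6 reached or neared the tumor level. The same controls had the highest mean of 8 macrophage markers, 10.2 and 10.75 against 7.79 to 8.33 on the other 3. This held too for type 2 markers, 12.69 and 12.71 against 11.9 to 12.13, and cell division genes, 7.70 and 7.22 against 5.86 to 6.32. They were also highest for T and NK cell, neutrophil and fibroblast markers, and lowest for endothelial, club cell and cardiac muscle markers. The part of these differences in Aldoc was not tested. The change was 1.96 ± 0.52 in spontaneous and 2.25 ± 0.47 in treated tumors (limma, adjusted p = 0.010 and 0.0016). Aldoa, the ubiquitous form, had 0.42 ± 0.17 and 0.31 ± 0.16 (adjusted p = 0.075 and 0.14), and was called at 0.53 and 0.40 without spontaneous tumor 1 and treated tumor 1 respectively. In spontaneous tumors Aldoa was also called after median centring, by the mean of its probe sets and with only the 2 groups compared. The same held over all 18 arrays with array weights.

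Tpi1, which interconverts the triose phosphates, read 10.39, 10.72, 10.12, 10.41 and 10.44 on control arrays, 11.82, 11.56, 11.84 and 12.20 on spontaneous arrays, and 10.92, 12.13 and 12.48 as lowest, median and highest treated array. Every tumor array lay above every control array, treated tumor 4 by the least. It rose by 1.44 ± 0.28 and 1.47 ± 0.25 (limma, adjusted p = 0.0010 and 0.00027).

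**Figure D2:**
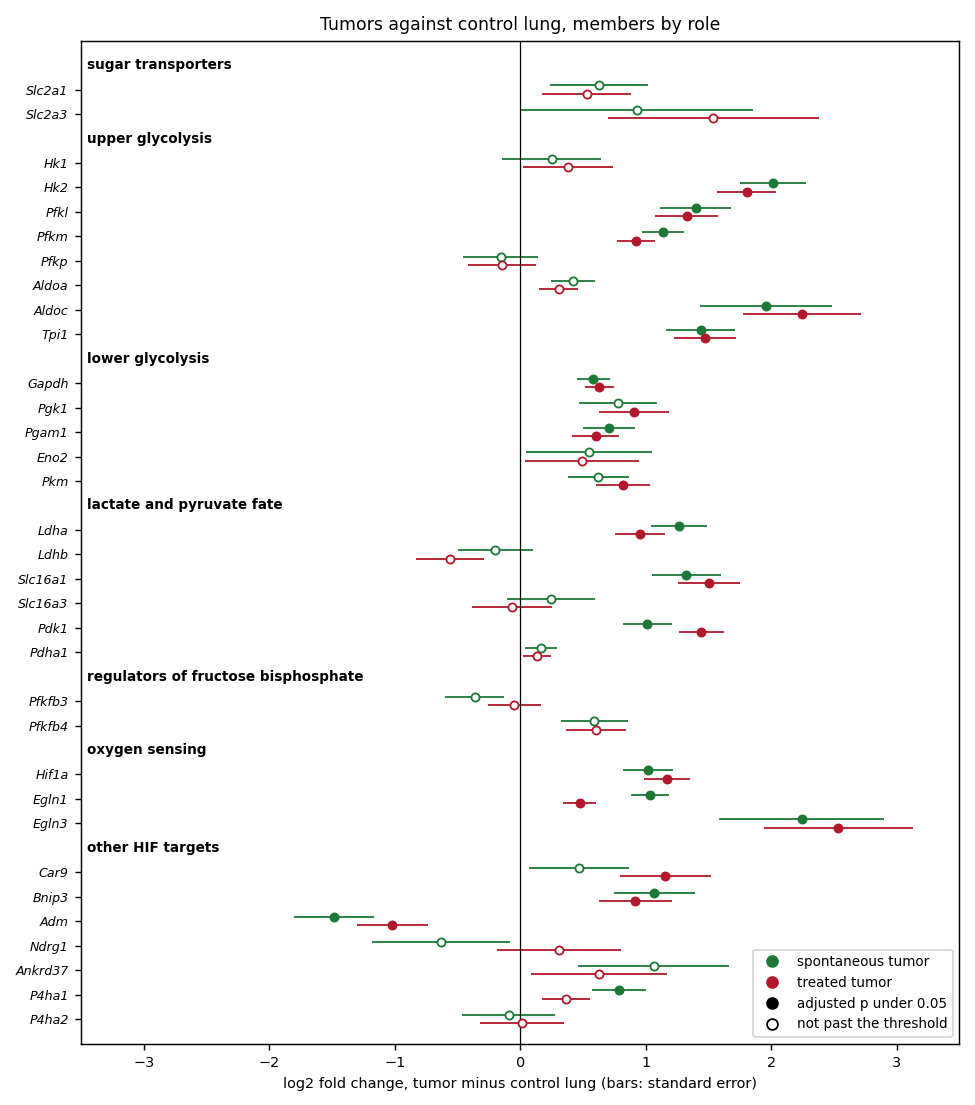
Log2 fold change of each measured member, tumor minus control lung, with its standard error as a bar, for spontaneous (green) and treated tumors (red), grouped by role. Filled points had an adjusted p under 0.05. Points to the right of 0 prevail in upper glycolysis, where Hk2 stood at 2.02 and 1.80, and Adm is the filled pair to the left of 0, at -1.48 and -1.02.

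In lower glycolysis, which yields ATP, 2 of 5 measured members rose in spontaneous tumors and 4 of 5 in treated tumors, and the remaining values were above 0. Gapdh, glyceraldehyde phosphate dehydrogenase, was read from the array's control probe sets, because its other probe sets carry several symbols. It rose by 0.58 ± 0.13 in spontaneous and 0.63 ± 0.12 in treated tumors by the 3′ probe set (limma, adjusted p = 0.0028 and 0.00057). Pgam1, phosphoglycerate mutase, rose by 0.71 ± 0.21 and 0.60 ± 0.19 (adjusted p = 0.016 and 0.019). Pgk1, phosphoglycerate kinase, rose by 0.90 ± 0.28 in treated tumors (adjusted p = 0.018) and had 0.78 ± 0.31 in spontaneous tumors (adjusted p = 0.066), where the 4 arrays nonetheless did not overlap with control.

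Pkm, the pyruvate kinase measured as a whole gene, rose by 0.82 ± 0.22 in treated tumors (limma, adjusted p = 0.0075) and had 0.62 ± 0.24 in spontaneous tumors (adjusted p = 0.059), where it was called without control 2, spontaneous tumor 1 or treated tumors 3 or 4 (0.62 to 0.76). Without either of these treated tumors Pgk1 was called there too, at 0.78. In spontaneous tumors Pkm and Pgk1 were also called after median centring, with the replicate number as a block and with only the 2 groups compared. The same held over all 18 arrays with array weights, and Pkm was called with genes below the median level left out. Eno2, the neuronal enolase, had 0.55 ± 0.50 and 0.49 ± 0.45 (adjusted p = 0.43 each), with treated arrays from 6.39 to 9.29 around a control range of 6.56 to 7.79. A call in treated and not in spontaneous tumors is no difference between them: treated against spontaneous values of these genes were not called. Without control 3 the treated values of Pgk1 and Pgam1 were 0.81 ± 0.30 and 0.54 ± 0.20 (adjusted p = 0.052 and 0.053).

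The size of the Gapdh change depended on where along the transcript it was read. From 5′ to 3′ the 3 probe sets gave 1.37 ± 0.23, 1.14 ± 0.22 and 0.58 ± 0.13 in spontaneous tumors, and 1.33 ± 0.21, 1.13 ± 0.20 and 0.63 ± 0.12 in treated tumors. All 6 values were called (limma over all probe sets tested singly, adjusted p from 0.000165 to 0.0032). The 3′ minus 5′ difference, a sign of how complete the labelled RNA was, ran from 1.84 to 2.21 on control, 1.11 to 1.40 on spontaneous and 1.09 to 1.97 on treated arrays. Control arrays therefore lay above all spontaneous arrays in this measure. They overlapped the treated arrays only through treated tumor 1, at 1.97, the next highest being treated tumor 4 at 1.43. The part of this measure in the other members' differences was not tested. For actin the same difference ran from -0.24 to -0.17 on control, -0.38 to -0.23 on spontaneous and -0.33 to -0.17 on treated arrays. There the control arrays were not the highest throughout. With the actin difference as a covariate, 31 of 33 members kept their call and sign in each comparison with control.

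**Figure D3:**
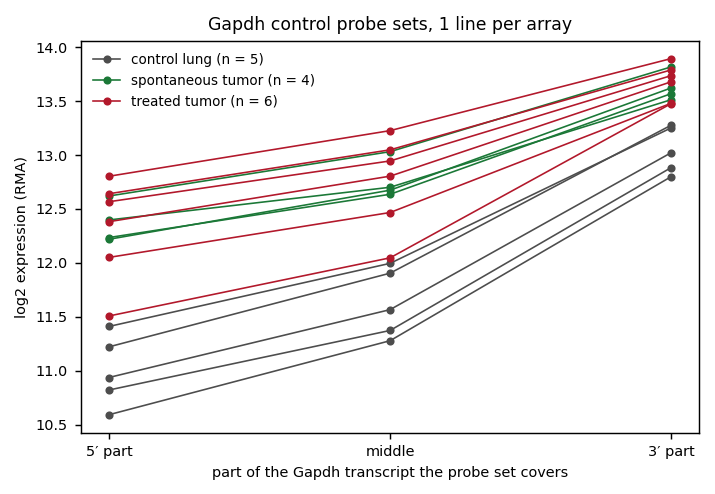
Log2 expression (RMA) of Gapdh by the 3 control probe sets for the 5′ part, the middle and the 3′ part of its transcript, 1 line per array. Control lines lie lowest at the 5′ part and climb by 1.84 to 2.21 to the 3′ part, against 1.11 to 1.40 in spontaneous tumors.

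Of the genes that decide between lactate and the mitochondrion, 3 of 6 rose in both tumor groups. Ldha, the lactate dehydrogenase subunit that favours lactate, read 11.51, 11.91, 11.28, 11.49 and 11.84 on control arrays, 12.46, 12.96, 12.97 and 13.09 on spontaneous arrays, and 11.79, 12.75 and 12.92 as lowest, median and highest treated array. Spontaneous and control arrays did not overlap, while treated tumor 4 lay within the control range. The rise was 1.26 ± 0.22 in spontaneous and 0.95 ± 0.20 in treated tumors (limma, adjusted p = 0.00053 and 0.0015). Ldhb, the subunit that favours pyruvate, had -0.20 ± 0.30 and -0.56 ± 0.27 (adjusted p = 0.65 and 0.11), and in treated tumors was called without control 2 or treated tumor 6, at -0.77 and -0.70.

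Slc16a1, the lactate and pyruvate carrier MCT1, read 7.77, 9.09, 8.06, 8.69 and 8.89 on control arrays, 9.59, 9.89, 9.75 and 10.06 on spontaneous arrays, and 9.21, 10.17 and 10.37 as lowest, median and highest treated array. All tumor arrays were above all control arrays, and it rose by 1.32 ± 0.28 and 1.502 ± 0.25 (limma, adjusted p = 0.0019 and 0.00023). Slc16a3, the lactate exporter MCT4 and a known HIF target, had 0.24 ± 0.35 and -0.065 ± 0.32 (adjusted p = 0.63 and 0.89).

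Pdk1, the kinase that switches off pyruvate dehydrogenase, read 8.40, 8.97, 8.30, 8.53 and 8.79 on control arrays, 9.80, 9.43, 9.46 and 9.74 on spontaneous arrays, and 9.37, 10.05 and 10.41 as lowest, median and highest treated array. Again every tumor array was above every control array. It rose by 1.01 ± 0.20 in spontaneous and 1.44 ± 0.18 in treated tumors (limma, adjusted p = 0.0012 and 1.8e-05), the smallest adjusted p of a member in the treated comparison. Pdha1, the subunit that Pdk1 phosphorylates, had 0.17 ± 0.13 and 0.13 ± 0.11 (adjusted p = 0.34 and 0.39), with tumor and control ranges overlapping.

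The 2 regulators that set the level of a fructose bisphosphate, an activator of phosphofructokinase, were not called. Pfkfb3 had -0.36 ± 0.24 and -0.047 ± 0.21 (limma, adjusted p = 0.26 and 0.89), and Pfkfb4 had 0.59 ± 0.27 and 0.60 ± 0.24 (adjusted p = 0.10 and 0.058). In treated tumors Pfkfb4 was called, at 0.60 to 0.69, without control 6, treated tumor 5 or spontaneous tumors 1 or 2. It was also called there after median centring, with genes below the median level left out and with only the 2 groups compared. The same held with the actin covariate, and over all 18 arrays with array weights, the latter in spontaneous tumors too.

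All 3 genes of oxygen sensing rose in both tumor groups. Hif1a, the regulated alpha subunit of the factor, read 9.90, 10.55, 9.62, 10.02 and 10.12 on control arrays, 11.18, 10.55, 11.09 and 11.44 on spontaneous arrays, and 10.88, 11.23 and 11.56 as lowest, median and highest treated array. Treated arrays lay above all control arrays, and spontaneous tumor 2 was level with control 2. It rose by 1.02 ± 0.20 in spontaneous and 1.17 ± 0.18 in treated tumors (limma, adjusted p = 0.0012 and 0.00013). This is its transcript, and the protein, whose breakdown is the regulated step, was not measured.

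Egln1, the main prolyl hydroxylase that marks HIF alpha subunits, read 10.19, 10.31, 10.34, 10.10 and 10.31 on control arrays, 11.29, 11.21, 11.36 and 11.27 on spontaneous arrays, and 10.35, 10.63 and 11.22 as lowest, median and highest treated array. Both tumor groups lay above control, the spontaneous arrays in a narrow band and the lowest treated array just above the highest control. It rose by 1.03 ± 0.15 and 0.47 ± 0.13 (limma, adjusted p = 0.00010 and 0.012).

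Egln3, a prolyl hydroxylase that is itself induced by HIF, read 5.83, 6.13, 5.22, 6.68 and 5.41 on control arrays, 7.76, 7.24, 8.08 and 9.31 on spontaneous arrays, and 6.19, 8.66 and 10.34 as lowest, median and highest treated array. The lowest treated array, tumor 4, lay within the control range, and the highest, tumor 3, stood farthest from the control mean of 5.85. It rose by 2.24 ± 0.66 in spontaneous and 2.54 ± 0.59 in treated tumors (limma, adjusted p = 0.016 and 0.0033), the largest log2 fold change among the members in both. Without spontaneous tumor 4 its value was 1.84 ± 0.69 (adjusted p = 0.061). On control arrays Egln3 was low, where the median member read 9.56 to 10.08. Its control values were close to the control means of skeletal muscle markers, 5.26 to 5.66, and neuroendocrine markers, 5.09 to 5.82, so the size of its rise is uncertain.

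Of the 7 other HIF targets, Bnip3 rose in both tumor groups, P4ha1 in spontaneous and Car9 in treated tumors, Adm fell in both, and Ndrg1, Ankrd37 and P4ha2 were called in neither. Car9, the membrane carbonic anhydrase used as a marker of hypoxia, read 5.80, 6.32, 6.00, 5.48 and 5.71 on control arrays, 6.57, 6.04, 6.61 and 6.10 on spontaneous arrays, and 6.13, 6.70 and 8.52 as lowest, median and highest treated array. Treated tumors 3 and 5, at 8.52 and 7.79, stood above the rest, and the other 4 lay between 6.13 and 6.96. Control and spontaneous values of Car9 were as low as the control values of Egln3. Car9 rose by 1.16 ± 0.36 in treated tumors and had 0.47 ± 0.40 in spontaneous tumors (limma, adjusted p = 0.019 and 0.40). Without treated tumor 3 its value in treated tumors was 0.86 ± 0.28 (adjusted p = 0.024).

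Bnip3, a mitophagy receptor, rose by 1.07 ± 0.32 in spontaneous and 0.92 ± 0.29 in treated tumors (limma, adjusted p = 0.020 and 0.021), with tumor and control arrays overlapping in both. Without control 3 the values were 0.94 ± 0.34 and 0.79 ± 0.31 (adjusted p = 0.051 and 0.062). Without spontaneous tumor 4 it had 0.97 ± 0.36 in spontaneous tumors (adjusted p = 0.058), and without control 4 it had 0.79 ± 0.31 in treated tumors (adjusted p = 0.060). P4ha1, a collagen prolyl hydroxylase, rose by 0.79 ± 0.21 in spontaneous tumors (adjusted p = 0.010) and had 0.36 ± 0.19 in treated tumors (adjusted p = 0.15). Its second probe set was called in both, at 1.13 ± 0.22 and 0.69 ± 0.20 (limma over all probe sets, adjusted p = 0.0014 and 0.013).

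Adm, adrenomedullin, a vasodilator peptide made by endothelium among other cells, was the only member called lower in either comparison with control. It read 12.80, 12.65, 12.89, 12.69 and 12.42 on control arrays, 10.90, 11.46, 11.00 and 11.46 on spontaneous arrays, and 10.90, 11.53 and 13.06 as lowest, median and highest treated array. All tumor arrays but treated tumor 3, which was above every control, lay below the control range. It fell by 1.48 ± 0.32 in spontaneous and fell by 1.02 ± 0.29 in treated tumors (limma, adjusted p = 0.0023 and 0.010), and without treated tumor 3 it fell by 1.30 ± 0.17 in treated tumors (adjusted p = 4.9e-05). Its second, dimmer probe set had -0.89 ± 0.42 and -0.18 ± 0.38 and was not called (limma over all probe sets, adjusted p = 0.12 and 0.75).

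Ndrg1, a stress-induced target, had -0.63 ± 0.55 in spontaneous and 0.31 ± 0.50 in treated tumors (limma, adjusted p = 0.41 and 0.67), with treated arrays from 8.79 to 12.28 around a control range of 10.14 to 11.27. Ankrd37 had 1.06 ± 0.60 and 0.63 ± 0.54 (adjusted p = 0.19 and 0.39), and as for Aldoc controls 2 and 6 were high, at 10.72 and 9.97 against 7.70 to 8.11 on the other 3. Without control 2 it was called in spontaneous tumors, at 1.52 ± 0.53 (adjusted p = 0.040). P4ha2, the second collagen prolyl hydroxylase, had -0.093 ± 0.37 and 0.014 ± 0.34 (adjusted p = 0.87 and 0.98).

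The SD within a group was larger in treated tumors than in control for 24 of 33 members (72.73%), with medians of 0.56 and 0.28, against 62.91% of all genes, with medians of 0.25 and 0.21. In spontaneous tumors it was larger for 19 of 33 members (57.58%), with a median of 0.27, against 57.69% of all genes. Most genes thus varied more in tumors, and whether the members did so more than other genes was not tested. Treated tumor 3 was the highest of the 6 treated arrays for 19 of 33 members, among them 8 of the 10 genes of oxygen sensing and other HIF targets, and it was highest for 15.49% of all genes.

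Treated tumors 4 and 1 were the lowest of the treated arrays for 12 and 10 members, against 19.94% and 13.48% of all genes. Among spontaneous tumors, number 4 was the highest for 19 of 33 members (17.41% of all genes) and number 1 the lowest for 20 (37.62%). Among control lungs, number 2 was the highest for 15 members (22.01%) and number 3 the lowest for 20 (19.42%). The members are genes of shared pathways measured on the same arrays, so these counts describe the arrays and carry no test.

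**Figure D4:**
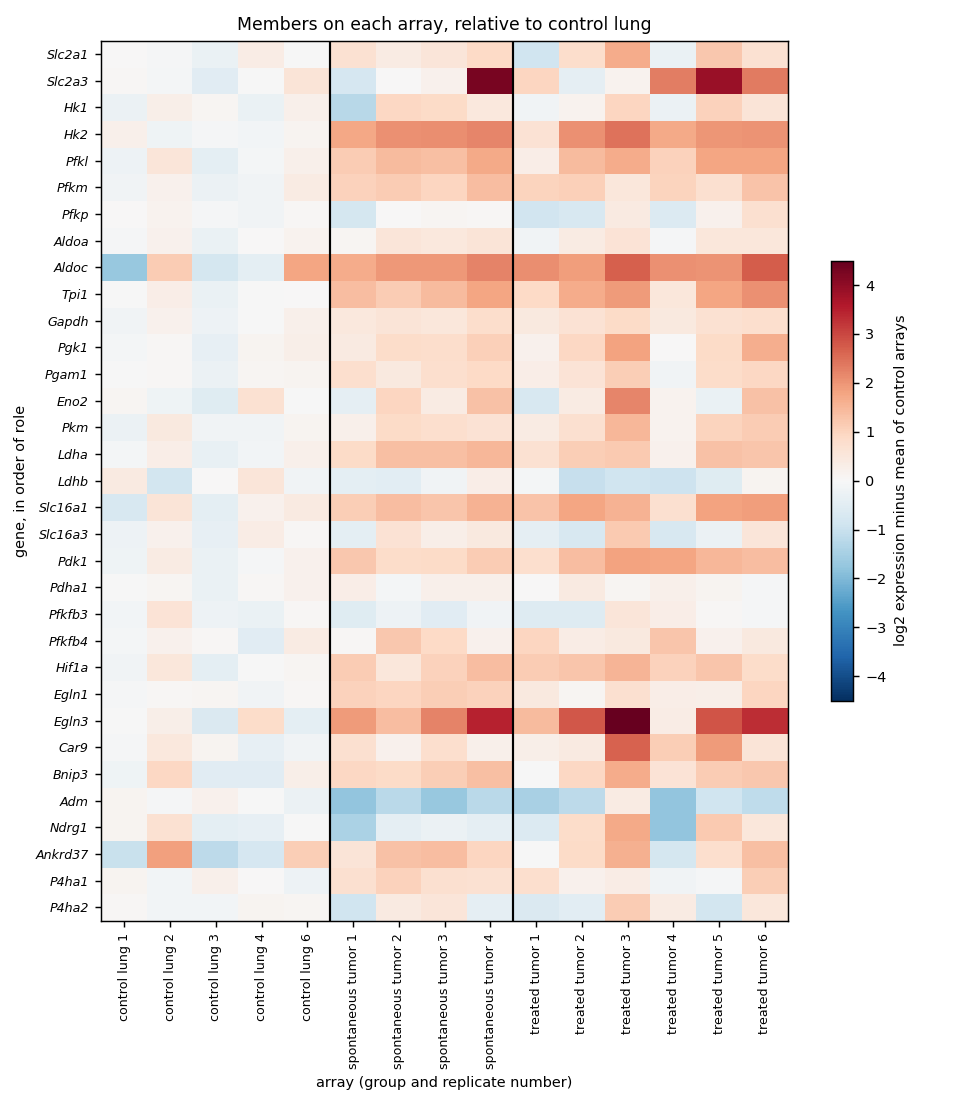
Log2 expression of each measured member on each of the 15 arrays, less the mean of the control arrays for that gene, with red above and blue below it, genes in order of role. Treated tumor 3 is the highest treated array for 19 members and for Adm lacks the blue of the other tumors, and treated tumors 1 and 4 are lowest for 10 and 12 members.

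Treated tumors were set against spontaneous tumors to ask whether exposure went with another level of these genes in tumors. By limma, 0 of 33 members were called, against 0.055% of all genes, or 10 genes. At an unadjusted p under 0.05 there were 2 of 33 members, against 1571 of all 18194 genes, and each alternative tried also called 0 members. The median difference of the members was 0.016, against -0.022 over all genes, and the tumor groups overlapped for all 33 members, against 1.63% of all genes without overlap. The half-width of the 95% interval of a difference was 0.58 at the median and ran from 0.26 to 1.91. Differences smaller than this could not be told from 0 with these arrays. Larger ones could also go uncalled after adjustment, as for Egln1 and Pdk1 below, whose intervals exclude 0.

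The 5 members with the smallest p are given as values. Egln1 had a treated minus spontaneous difference of -0.56 ± 0.14, with a 95% interval of -0.87 to -0.25 (limma, adjusted p = 0.24), and its highest treated array, 11.22, just reached the lowest spontaneous array, 11.21. Pdk1 had 0.43 ± 0.19, with an interval of 0.022 to 0.83 (adjusted p = 0.55). P4ha1 had -0.43 ± 0.20, with an interval of -0.86 to 0.010 (adjusted p = 0.59). Car9 had 0.69 ± 0.39 and Ndrg1 0.94 ± 0.53, with intervals of -0.13 to 1.51 and -0.19 to 2.07 (adjusted p = 0.65 and 0.66). Over all 18 arrays Egln1 had 0.81 ± 0.80 and P4ha1 0.13 ± 0.41, the other way (adjusted p = 0.50 and 0.84).

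Related genes outside the members were read in the same way. Of 20 measured sugar uptake and glycolysis genes outside the set, many of them tissue-restricted isoforms, 3 rose and 2 fell in spontaneous tumors and 3 rose and 4 fell in treated tumors, with medians of 0.16 and -0.056. Hkdc1, a hexokinase-like enzyme, rose by 3.25 ± 0.36 and 3.30 ± 0.33 (limma, adjusted p = 9.4e-06 and 2.0e-06). Slc2a2, the GLUT2 transporter of liver and pancreas, rose by 3.17 ± 0.60 and 2.98 ± 0.54 (adjusted p = 0.00094 and 0.00051). Eno4, an enolase known from sperm, fell by 2.39 ± 0.26 and fell by 2.40 ± 0.24 (adjusted p = 8.2e-06 and 1.9e-06), and all 6 ciliated cell markers fell in both groups. Slc2a4, the insulin-responsive GLUT4, fell by 0.64 ± 0.15 and fell by 0.82 ± 0.14 (adjusted p = 0.0047 and 0.00026).

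Of 6 measured genes of the pentose phosphate pathway, which branches off after hexokinase, 3 rose in both tumor groups and the others were not called. Pgls had 0.75 ± 0.16 and 0.80 ± 0.14, and Rpia 0.64 ± 0.16 and 0.90 ± 0.14 (limma, adjusted p from 0.00015 to 0.0059). Of 15 genes of gluconeogenesis and glycogen, 5 rose and 2 fell in spontaneous tumors and 7 rose and 1 fell in treated tumors. Pck1 and Pck2, the cytosolic and mitochondrial enzymes that make phosphoenolpyruvate, rose by 2.39 ± 0.44 and 1.47 ± 0.18 in spontaneous and 3.02 ± 0.40 and 1.58 ± 0.16 in treated tumors (adjusted p from 3.3e-06 to 0.00076). Gys1, glycogen synthase, rose by 1.65 ± 0.17 and 1.16 ± 0.16, while Pygm, the muscle glycogen phosphorylase, fell by 1.12 ± 0.19 and fell by 1.34 ± 0.17 (adjusted p from 5.7e-06 to 0.00034). Pygl, the liver phosphorylase, rose by 1.53 ± 0.28 in treated tumors (adjusted p = 0.00058) and had 0.78 ± 0.31 in spontaneous tumors (adjusted p = 0.067).

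Of 11 measured genes of pyruvate entry into the mitochondrion, 5 rose in both groups, and 2 fell in spontaneous and 1 in treated tumors. The rises were those of Dld, Dlat, Pdhx and Pdhb, parts of the pyruvate dehydrogenase complex, and of the kinase Pdk2, at 0.30 to 0.72 in spontaneous and 0.31 to 0.65 in treated tumors. Pdk4, the kinase induced by fasting, fell by 2.65 ± 0.67 and fell by 1.97 ± 0.61 (limma, adjusted p = 0.0073 and 0.018). Pdk1 and Pdk2 thus rose while Pdk4, of the same family, fell.

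Of 11 measured components of oxygen sensing outside the set, 4 rose in both tumor groups, and 2 fell in spontaneous and 1 in treated tumors. Epas1, the other main HIF alpha subunit, which is abundant in endothelium, fell by 1.22 ± 0.16 and fell by 1.31 ± 0.14 (limma, adjusted p = 4.3e-05 and 5.7e-06), while Hif1a rose. Egln2, another prolyl hydroxylase, rose by 0.92 ± 0.11 and 0.67 ± 0.10, and Vhl, which recognizes hydroxylated HIF, by 0.77 ± 0.17 and 0.86 ± 0.15 (adjusted p from 2.2e-05 to 0.0026). Hif3a, an inhibitory HIF alpha subunit, rose by 1.13 ± 0.37 and 1.08 ± 0.34 (adjusted p = 0.029 and 0.018).

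HIF targets outside the set went both ways. Of 33 measured, 13 rose and 6 fell in spontaneous tumors and 13 rose and 7 fell in treated tumors, with medians of 0.45 and 0.27. Cited2, an inhibitor of HIF that HIF induces, rose by 2.03 ± 0.20 and 1.88 ± 0.18 (limma, adjusted p = 3.1e-06 and 1.6e-06). Vldlr, a lipoprotein receptor, rose by 1.09 ± 0.13 and 0.87 ± 0.12, and Fam162a, a mitochondrial protein, by 1.15 ± 0.18 and 1.03 ± 0.16 (adjusted p from 2.1e-05 to 0.00017). Edn1, the vasoconstrictor endothelin made by endothelium, fell by 3.12 ± 0.29 and fell by 3.16 ± 0.26 (adjusted p = 1.956e-06 and 3.8e-07).

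Hilpda, a lipid droplet protein, fell by 2.36 ± 0.35 and fell by 1.88 ± 0.32 (limma, adjusted p = 0.00013 and 0.00027). Vegfa, the vascular growth factor and a classical HIF target, was looked up after its values were seen and fell by 1.32 ± 0.23 and fell by 0.96 ± 0.21 (adjusted p = 0.00047 and 0.0018). Adm, Edn1 and Vegfa, which act on vessels, fell in the comparisons in which 9 and 10 of 10 endothelial markers also fell. Vegfa is also 1 of the 8 alveolar type 1 cell markers listed here, of which 6 fell in spontaneous and 5 in treated tumors. On treated tumor 3, where Adm was above every control, the endothelial markers had a mean of 9.39, against 11.28 to 11.88 on control arrays. The part of endothelial or alveolar type 1 cells in these falls was not tested.

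**Figure D5:**
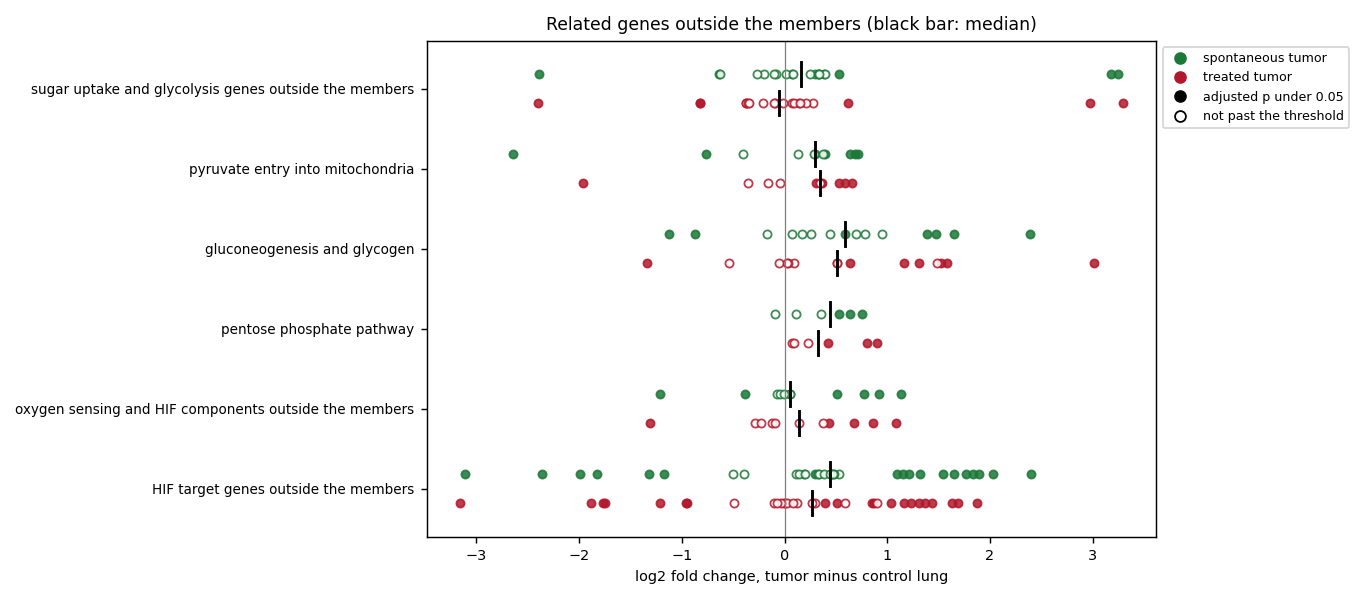
Log2 fold change, tumor minus control lung, of each measured gene in 6 lists of related genes outside the members, for spontaneous (green) and treated tumors (red), with filled points at an adjusted p under 0.05 and a black bar at the list's median. HIF targets spread to both sides of 0, from Edn1 at -3.12 and -3.16 upwards, and Hkdc1 and Slc2a2 are the far right pair among sugar uptake and glycolysis genes.

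These calls depended on the arrays used and on a technical measure. Over all 18 arrays, with the 3 that stood apart, 0 members rose in spontaneous and 4 in treated tumors and 0 fell in either (limma; 3 and 11 members had an unadjusted p under 0.05, against 2499 and 3417 of all 18194 genes). The hybridization spike BioB, a bacterial RNA added before hybridization, read 10.65 to 11.24 on control, 10.19 to 10.49 on spontaneous and 10.24 to 10.62 on treated arrays, so that control and tumor arrays did not overlap. With it as a covariate 0 and 3 members rose and 0 fell, and the median standard error of a member went from 0.28 to 0.53 and from 0.25 to 0.46. The spike level and the group cannot be told apart on these arrays.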

How the data were processed

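Per the submitters' processing notes, the deposited log2 values of each probe set were made by the authors with RMA, which corrects background, normalizes arrays together and summarizes probes; its version is not given in the sources used here. Of 45101 probe sets, 34945 carried 1 gene symbol in the platform annotation, 932 several and 9160 none, and 64 were array controls. The probe set with the highest mean over the arrays used stood for a gene, and Gapdh was read from its control probe sets. No further normalization was applied.

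A linear model with 1 mean per group was fitted to 18194 genes on 15 arrays with limma 3.58.1 in R 4.3.3, with moderated tests and Benjamini-Hochberg adjustment over all genes in each comparison, and a gene was called at an adjusted p under 0.05. For each gene the groups share a pooled estimate of the spread. The log2 fold change is the group named first minus the other. No set test was run.

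The members, the lists of related genes and cell markers, and the left-out arrays were chosen with earlier results of these data known. Any member could be named against control, the 5 smallest p between tumor groups, and up to 6 genes by smallest p from a further list. Alternatives were other arrays, normalizations, filters, probe sets, variance models, call rules and covariates, the replicate number as a block, and each array left out. The BioB covariate and the fit of every probe set singly were added after the data were seen. RefSeq promoters of GRCm38.p6 were searched for the HIF core with Python 3.11.15. Raw images were not analysed here.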

Additional observations from a re-analysis of the deposited data

Results flagged for a closer look

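In 3 of 99 groups of values (33 members in 3 groups), 1 array stood far from the others of its group by Dixon's criterion at its 95% critical value, which chance alone meets in about 1 in 20 groups. Pfkp read 8.94 in spontaneous tumor 1 and 9.75 to 9.81 in the other 3 spontaneous tumors. Ndrg1 read 9.13 in the same spontaneous tumor 1 and 10.16 to 10.29 in the others. P4ha1 read 11.41 in spontaneous tumor 2 and 11.07 to 11.08 in the others.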

How the results depend on the processing

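The 3 arrays left out and the BioB covariate, added after the data were seen, changed most calls, and the cause was not tested. Over all 18 arrays, where the median standard error of a member was 0.64 against 0.28 and 0.25, 0 members rose and 0 fell in spontaneous tumors, 4 rose and 0 fell in treated tumors, and 757, 1350 and 0 genes in all were called in the 3 comparisons, against 6013, 7066 and 10. With the covariate 0 and 3 members rose and 0 fell, and 519, 1224 and 3 genes were called. A fold change of at least 2 left 9 members higher in treated tumors and 2421 and 2589 genes, and leaving out genes below the median left 4004 and 4658, by fewer genes passing or tested. Adm, the 1 lower member, was lost (0 lower) without _x_at and _s_at probe sets and by the second probe set in both comparisons, and by the mean of probe sets in treated tumors. Between tumor groups, 37 genes were called with array weights, 27 with the actin covariate, 6 by the second probe set, 5 after quantile normalization, 5 with trend and robust variances and 0 with only those 2 groups. Other settings kept each count within 1.5 times.

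Deviations of same-numbered arrays of different groups had correlations of -0.15 to 0.30 (median -0.025, n = 13). Those of differently numbered arrays ran from -0.35 to 0.37 (median 0.0069, n = 61). Whether the numbers pair samples stays unknown, because the labels do not say and these correlations cannot exclude it. With the replicate block 17 members were higher and 1 lower in spontaneous tumors, and 0 genes were called between tumor groups. Pgam1 in treated tumors had 0.56 (adjusted p = 0.062) and Pgk1 and Pkm in spontaneous tumors 0.90 and 0.68 (adjusted p = 0.048 and 0.030).

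With 1 array left out, 13 to 17 members were higher and 1 to 1 lower in spontaneous, 14 to 19 higher and 1 to 2 lower in treated tumors, with 4994 to 6178, 6084 to 7226 and 0 to 28 genes called in the 3 comparisons. Of called members, 14 of 16 and 15 of 18 kept their call in every such fit; the others (Egln3, Bnip3, Pgk1, Pgam1) are given above. Uncalled members passed in spontaneous tumors without spontaneous tumor 1 (Aldoa 0.53, Pkm 0.76), control 2 (Pkm 0.73, Ankrd37 1.52) and treated tumors 3 or 4 (Pgk1 0.78, Pkm 0.62). In treated tumors they passed without treated tumor 1 (Slc2a1 0.81, Aldoa 0.40), control 2 (Ldhb -0.77), treated tumor 6 (Ldhb -0.70), control 6, treated tumor 5 or spontaneous tumors 1 or 2 (Pfkfb4 0.69, 0.69, 0.60 and 0.60).

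Signs turned as follows, in no case for a called value except those of Aldoc, Pdk2, Dlat, Cul2 and the markers Syp and Myh1. Spontaneous values over 18 arrays were Hk1 -0.15, Aldoa -0.41, Pdha1 -0.26, Pdk2 -0.22, Dlat -0.13 and Cul2 -0.41, and with BioB Slc2a3 -2.43, Hk1 -0.70, Aldoc -0.20, Ankrd37 -0.31 and P4ha2 0.11. They were 0.061 for Pfkp and 0.20 for the marker Syp by the second probe set, and 0.30 for P4ha2 with the actin covariate. Treated values over 18 arrays were Pfkp 0.039, Ldhb 0.053 and Pfkfb3 0.091, and with BioB Slc2a3 -1.28, Hk1 -0.42 and Ankrd37 -0.53. By the second probe set they were Pfkp 0.018, Pfkfb3 0.099 and the marker Myh1 0.024 (0.024 too without _x_at and _s_at sets). Median centring gave Slc16a3 0.012 and Pfkfb3 0.031, the actin covariate Slc16a3 0.0027, the mean of probe sets Pfkfb3 0.026 and quantile normalization P4ha2 -0.085. Between tumor groups Egln1 was 0.81 and P4ha1 0.13 over 18 arrays. With 1 array left out, spontaneous values ran from -0.19 to 1.49 for Slc2a3, -0.24 to 0.052 for Pfkp and -0.31 to 0.18 for P4ha2, and treated values from -0.31 to 0.069 for Slc16a3, -0.168 to 0.105 for Pfkfb3 and -0.21 to 0.18 for P4ha2.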

Other observations

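Other cell marker lists differed between tumor and control lung in both tumor groups. All 6 ciliated cell and all 6 smooth muscle markers fell in both, 3 of 6 club cell markers fell in spontaneous and 6 of 6 in treated tumors, and 6 and 5 of 8 alveolar type 1 markers fell. Of 7 fibroblast markers 5 fell in both, and 1 rose in treated tumors. Of 8 cardiac muscle markers, which in mouse lung come from the pulmonary vein wall, 4 fell and 1 rose in both groups. Of 6 skeletal muscle markers 1 rose in both (16.67%), and 1 fell in spontaneous (16.67%) and 2 in treated tumors (33.33%), few genes to set against those shares.

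Among immune lists, 2 of 8 macrophage markers rose in both tumor groups (25%, near the share of all genes) and 1 fell in treated tumors. Array means of the macrophage markers were 9.65 to 10.94 on spontaneous and 9.64 to 10.99 on treated arrays. They lay within the control range of 7.79 to 10.75 or just above it. Of 7 neutrophil markers 1 fell in both (14.29%, near the share of all genes). Of 7 T and NK cell markers 3 fell in spontaneous and 6 in treated tumors, and of 5 B and plasma cell markers 3 and 4 fell. Of 3 measured erythroid and of 6 neuroendocrine markers, 1 of each fell in both (33.33% and 16.67%), which is a single gene in each list. Of 9 cell division genes 9 rose in spontaneous and 4 in treated tumors, with median log2 fold changes of 1.78 and 1.14. Whether the lists changed more in one tumor group than in the other was not tested. Per gene, 0 markers of these lists were called between treated and spontaneous tumors by limma, and 3 of 6 club cell markers and 1 ciliated marker had an unadjusted p under 0.05 there, against 1571 of all 18194 genes.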
